A study of Mus musculus with 8 samples.

Results

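Genes of the prostanoid pathway were examined in PD-1hi effector CD8 T cells from leukaemia-bearing mice, with the prostaglandin transporter gene Slco2a1 at their head. The 10 genes are Slco2a1, the receptor genes Ptger1, Ptger2, Ptger3, Ptger4, Ptgir and Ptgdr2, and the enzyme genes Hpgd, Ptgs1 and Ptgs2. A gene was taken where a row of the expression table carried its symbol and no other, and 7 of the 10 had such a row among 22180 genes. Ptger1, Ptgs1 and Ptgdr2 were not analysed here; the row that holds Ptgdr2 is shared with Ccdc86. Each of the 7 genes had a single row. Slco2a1 was chosen because it was among the genes that differed most between the groups, and the rest were chosen with results of that comparison known. Their differences are therefore given as a description, with standard errors (SE) and no p-value.

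The samples were 4 from mice given an antibody that blocks the interleukin 10 receptor (anti-IL-10R) and 4 from mice given an isotype control antibody. All mice were female, of the C57BL/6 strain per the protocols (the strain field reads C56BL/6), and carried transplanted leukaemia cells from Eµ-TCL1 mice, a model of chronic lymphocytic leukaemia in which the transgene is driven in B cells. Antibody treatment started 3 weeks after transplantation, and CD8 T cells with low CD127, intermediate to high CD44 and high PD-1 were sorted from the spleen at 5 weeks. Each sample was measured on 1 Mouse Gene 2.0 ST array, and the values are log2 expression. Ages are not given in the labels, which also do not say whether each array stands for a separate animal, so errors measure the spread between arrays. In such bulk samples, fewer cells of a type and less RNA per cell cannot be told apart.

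Prostanoids are lipid mediators made from arachidonic acid. Phospholipases free the acid, the cyclooxygenases encoded by Ptgs1 and Ptgs2 turn it into a common precursor, and terminal synthases make prostaglandin E2, prostacyclin and the other end products. Prostaglandin E2 acts on T cells mainly through the receptors EP2 and EP4, encoded by Ptger2 and Ptger4, which raise cyclic AMP (cAMP) and dampen T cell receptor signalling. SLCO2A1 carries prostaglandins into cells, where the dehydrogenase encoded by Hpgd inactivates them.

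The sort markers were bright in both groups, apart from Cd44 (means of 6.63 in anti-IL-10R and 6.44 in isotype arrays) and the excluded marker. Cd8a had log2 expression of 11.11 to 11.15 in anti-IL-10R arrays and 10.72 to 10.91 in isotype arrays, and Pdcd1, which encodes PD-1, had 11.33 to 11.55 and 10.34 to 11.20. Il7r, which encodes CD127, was dim, with means of 3.60 ± 0.50 (SD, n = 4) in anti-IL-10R and 3.57 ± 0.62 in isotype arrays. Isotype replicate 1 stood apart: over genes whose mean was at least 5.24, the median of all row means, its Pearson correlation with the other arrays was 0.915 to 0.929, against 0.962 to 0.986 among the other 7 (across genes, which are not independent replicates). Without it the difference of Pdcd1 was 0.30 in place of 0.50, that of Cd44 0.06 in place of 0.19 and that of Il7r 0.33 in place of 0.03. Differences of other named genes that it moved by over 1.5 times are given with and without it.

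The promoters of 3 genes are shown because these are described at most length: the transporter genes Slco2a1 and Slco4c1, a relative whose expression also differed strongly, and Ptger4. Each line gives the 250 bases before the annotated start in RefSeq GRCm38.p6, 5′ to 3′ on the gene's strand, at chr9:103008237-103008486 (plus strand) for Slco2a1, chr1:96872172-96872421 (minus strand) for Slco4c1 and chr15:5244188-5244437 (minus strand) for Ptger4. Capitals mark TATAAA, the letters of a TATA box.
Slco2a1: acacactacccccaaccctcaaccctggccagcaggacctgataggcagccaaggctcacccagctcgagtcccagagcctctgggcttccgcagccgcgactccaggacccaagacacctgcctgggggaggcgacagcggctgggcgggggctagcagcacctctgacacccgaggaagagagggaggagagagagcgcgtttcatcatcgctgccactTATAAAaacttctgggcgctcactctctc
Slco4c1: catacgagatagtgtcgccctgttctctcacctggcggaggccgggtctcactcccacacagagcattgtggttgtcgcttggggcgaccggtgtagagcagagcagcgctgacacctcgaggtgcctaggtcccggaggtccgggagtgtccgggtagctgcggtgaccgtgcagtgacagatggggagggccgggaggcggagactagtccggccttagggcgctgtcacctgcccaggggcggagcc
Ptger4: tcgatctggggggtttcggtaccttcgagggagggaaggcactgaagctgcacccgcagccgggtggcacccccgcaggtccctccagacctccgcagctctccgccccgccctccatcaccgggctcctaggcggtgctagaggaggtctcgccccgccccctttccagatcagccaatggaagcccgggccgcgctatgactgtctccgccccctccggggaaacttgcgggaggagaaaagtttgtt

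Slco2a1 was the only one of the 9 pathway genes with a RefSeq promoter entry to hold TATAAA on either strand, beginning 29 bases before the start, against 12.4% of the 32851 promoters in the table; this motif was chosen after the sequence was seen. The same windows were searched on both strands for the cAMP response element TGACGTCA, for its half-site TGACG, which the full element contains, and for the STAT motif TTCNNNGAA. None of the 9 held any of them within these 250 bases, and neither did Slco4c1. Sites further upstream or past the annotated start were not searched. Over all promoters the shares were 1.55% for the full element, 17.8% for the half-site and 7.02% for the STAT motif. The promoters of Slco2a1, Slco4c1 and Ptger4 had 63.2%, 66.4% and 66.8% G and C. Those of Ptgir, Ptger3 and Ptgs2, whose expression differed little, were near them, with 63.6%, 62.0% and 61.6%. The promoters of Hpgd, Ptgdr2, Ptgs1 and Ptger2 had 56.8%, 55.2%, 48.0% and 38.0%.

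Slco2a1 (transcript cluster 17520905) was far brighter in the cells of anti-IL-10R mice. Its log2 expression was 9.41, 9.36, 9.53 and 9.38 in anti-IL-10R arrays, against 6.83, 6.91, 7.64 and 6.59 in isotype arrays. The groups lay well apart: the highest isotype array, replicate 3, was still below every anti-IL-10R array. The difference was 2.43 ± 0.20 (SE) on the log2 scale, a 5.38-fold level (95% interval 3.96 to 7.31), which was the third highest of all 22180 genes. The 4 anti-IL-10R arrays were close to one another (SD 0.07), whereas the isotype arrays had an SD of 0.45. The difference was 2.37 without isotype replicate 1 and 2.64 without isotype replicate 3.

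**Figure D1:**
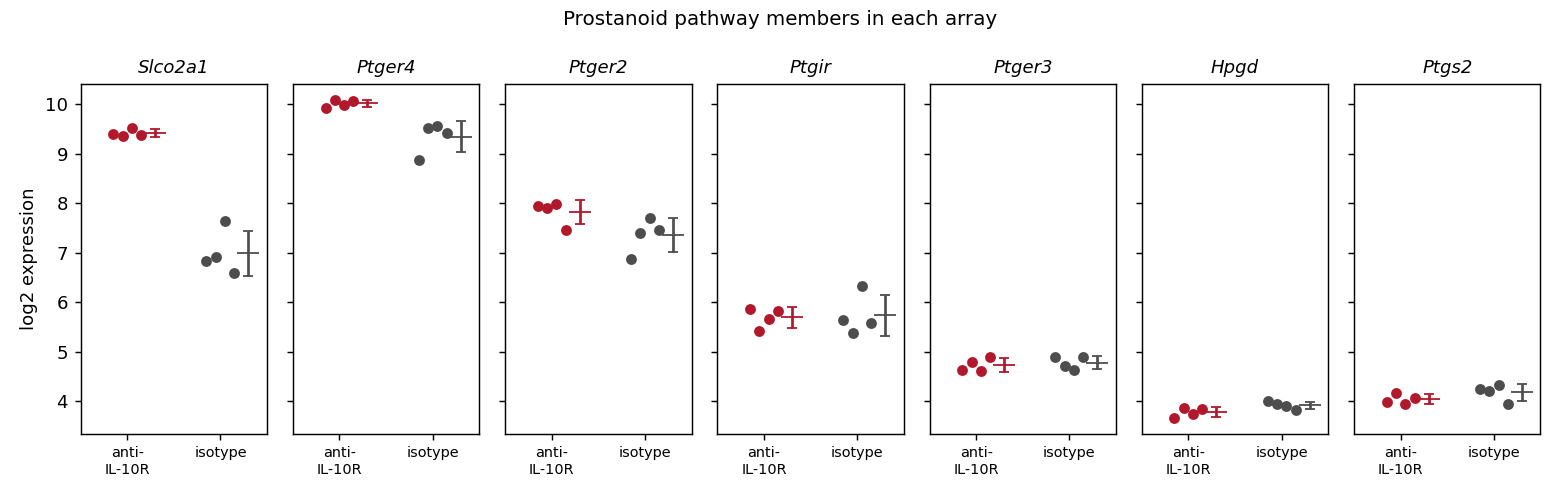
Log2 expression of the 7 measured prostanoid pathway genes in each array, anti-IL-10R arrays (red) left of isotype arrays (grey) in each panel; points are arrays, and the bar beside them is the mean with 1 SD (n = 4). Slco2a1 and Ptger4 are the genes whose groups do not overlap, and levels are not comparable between panels because each gene has its own probes.

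Of the receptor genes, those for the EP4 and EP2 receptors of prostaglandin E2 had the higher means after IL-10R blockade, and those for EP3 and the prostacyclin receptor differed little. Ptger4 (17315718) had log2 expression of 9.921, 10.096, 9.996 and 10.064 in anti-IL-10R arrays, against 8.878, 9.523, 9.560 and 9.420 in isotype arrays. Every anti-IL-10R array was above every isotype array, and isotype replicate 1 was the lowest. The difference was 0.67 ± 0.16 (SE), or 1.60-fold (95% interval 1.26 to 2.03), and 0.52 ± 0.10 without isotype replicate 1.

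Ptger2 (17299180) had log2 expression of 7.95, 7.91, 7.99 and 7.47 in anti-IL-10R arrays, against 6.88, 7.39, 7.70 and 7.46 in isotype arrays. Its groups overlapped, because anti-IL-10R replicate 4 lay among the isotype arrays. The difference of 0.47 ± 0.19 shrank to 0.31 ± 0.14 without isotype replicate 1, again the lowest array. That array was also lowest in Pdcd1, at 10.34, and the part that its general difference has in the Ptger4 and Ptger2 values was not tested beyond leaving it out.

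Ptger3 encodes EP3, a receptor that lowers cAMP. Its log2 expression was 4.61 to 4.90 in anti-IL-10R and 4.62 to 4.89 in isotype arrays, a difference of −0.04 ± 0.12 (−0.0061 without isotype replicate 1). Ptgir, the gene of the prostacyclin receptor, which raises cAMP, had 5.87, 5.42, 5.65 and 5.83 in anti-IL-10R arrays and 5.64, 5.39, 6.33 and 5.59 in isotype arrays. Its groups overlapped throughout, with isotype replicate 3 the highest, and the difference was −0.04 ± 0.20 (95% interval −0.49 to 0.40). It was −0.08 without isotype replicate 1, and changed sign without isotype replicate 3 (0.15) and without anti-IL-10R replicate 2 (0.05).

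The enzyme genes were dim and differed little. Ptgs2, the inducible cyclooxygenase gene, had log2 expression of 3.98, 4.17, 3.94 and 4.07 in anti-IL-10R arrays, against 4.24, 4.20, 4.33 and 3.94 in isotype arrays. Hpgd, whose product oxidises prostaglandin E2 after uptake, had 3.67, 3.87, 3.74 and 3.85 in anti-IL-10R arrays, against 4.01, 3.94, 3.90 and 3.82 in isotype arrays. Both had overlapping groups, with differences of −0.14 ± 0.12 for Ptgs2 (95% interval −0.40 to 0.13) and −0.13 ± 0.10 for Hpgd (−0.36 to 0.10). Ptgs2, Hpgd and Ptger3 lay below 5.24 in their means over all arrays, and whether they were above background could not be set from these values; the other 4 genes lay above it.

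In the limma fit over all 22180 genes, 145 genes (0.654%) passed an adjusted p below 0.05, of which 67 (0.302%) were higher and 78 (0.352%) lower after blockade. Of the 7 measured members 1, Slco2a1, was among them. Groups did not overlap for 2 of the 7 members, Slco2a1 and Ptger4, and for 10.3% of all genes. Since the members were chosen on this comparison, nothing is read from these counts. Ptger4 did not pass in the main fit, and passed in 4 of 17 alternative fits. These were without isotype replicate 1, when 769 genes (3.47%) passed, with the stricter filter on dim genes, after quantile normalization and with array weights. Nothing is read from this either, since Ptger4 too was chosen on this comparison.

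The rest of the SLCO family, organic anion transporters related to SLCO2A1, gave 1 further gene that rose. Slco4c1 (17225837), whose product is known for organic anion transport in the kidney, had log2 expression of 5.54, 5.17, 6.06 and 5.12 in anti-IL-10R arrays, against 3.58, 3.23, 3.52 and 3.41 in isotype arrays. The groups were separated by more than the whole range of either one. The difference was 2.04 ± 0.20 (SE), or 4.11-fold (95% interval 3.02 to 5.58, limma adjusted p = 0.00612 over all genes), the sixth highest of all genes. Its isotype mean of 3.43 ± 0.15 (SD, n = 4) was well below 5.24, so the size of the difference is uncertain. It stayed past the threshold in each fit that left out 1 array (adjusted p 0.0034 to 0.0422).

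All 14 of the other SLCO genes listed were measured, and 1 rose and 0 fell, against 0.302% of all genes higher and 0.352% lower. The 13 besides Slco4c1 differed by −0.22 to 0.18. Slco3a1, which encodes another carrier of prostaglandins, had a mean of 5.33 ± 0.16 (SD, n = 4) in anti-IL-10R and 5.19 ± 0.24 in isotype arrays. Slco4a1, the closest relative of Slco4c1 by name, had 6.91 ± 0.17 and 7.04 ± 0.39, a difference of −0.12, or −0.31 without isotype replicate 1. Neither of these genes passed, and both were chosen after their values were seen. The median difference over the list was −0.05, and over all genes −0.02; 12 of the 14 had means below 5.24.

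**Figure D2:**
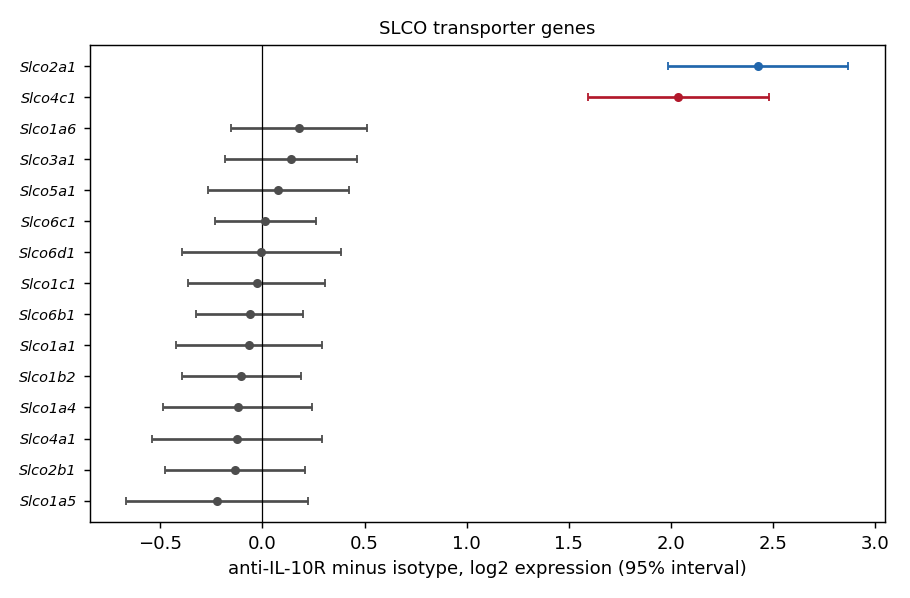
Difference between anti-IL-10R and isotype arrays in log2 expression (points) with its 95% interval (bars, limma, 4 arrays a group) for Slco2a1 and 14 other SLCO genes. Slco2a1 (blue) was chosen for its difference; Slco4c1 (red) passed an adjusted p below 0.05 over all genes, and the other 13 (grey) lay between −0.22 and 0.18.

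The genes nearest to Slco2a1 in their pattern over the 8 arrays were found by the root mean square distance between profiles centred on each gene's mean. Among genes with means of at least 5.24, the nearest 5 named genes were Klk1b27, a kallikrein gene (distance 0.40), Mxd4, which encodes an antagonist of MYC (0.52), Mrc2, a collagen receptor gene (0.56), Dscam, a cell adhesion gene (0.57), and Tnfsf13b, which encodes the B cell survival factor BAFF (0.59). Klk1b27 reached 5.24 only through the anti-IL-10R arrays, with a mean of 7.34 there and 4.81 in isotype arrays. The size of its difference is therefore uncertain. With dimmer genes included, Slco4c1 was the nearest of all at 0.40, and 4 of the nearest 5 above stayed in the list. By Pearson correlation 1 of the 5, Mxd4, was kept. The groups themselves make up most of the spread in Slco2a1. A gene with a rise of a size near that of Slco2a1 therefore comes out as near by distance. By correlation, a gene that is cleanly higher after blockade comes out as near, whatever the size of its rise. A profile that also follows Slco2a1 among the isotype arrays comes out nearer still, so likeness within that group is partly set by the choice of genes.

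Within the isotype group, Slco2a1 was highest in replicate 3, at 7.64 against 6.59 to 6.91 in the other isotype arrays. Klk1b27 had 6.14 in that array and 4.02 to 4.69 in the other isotype arrays, and Tnfsf13b had 7.29 there against 5.33 to 6.19. Mxd4, Mrc2 and Dscam were highest there as well by small margins, at 8.01, 8.04 and 8.19, against at most 7.94, 7.96 and 8.13 in the other isotype arrays. Slco4c1 was not, with 3.52 in isotype replicate 3 and 3.23 to 3.58 in the others. Kallikrein 1 genes are near-identical copies, so the value of Klk1b27 may include its relatives. Tnfsf13b averaged 7.62 ± 0.12 (SD, n = 4) in anti-IL-10R and 6.16 ± 0.84 in isotype arrays. The difference was 1.47 ± 0.34 (SE), or 1.19 ± 0.28 without isotype replicate 1, and did not pass the threshold with all arrays. No p-value is given, because the gene was picked for its likeness to Slco2a1.

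**Figure D3:**
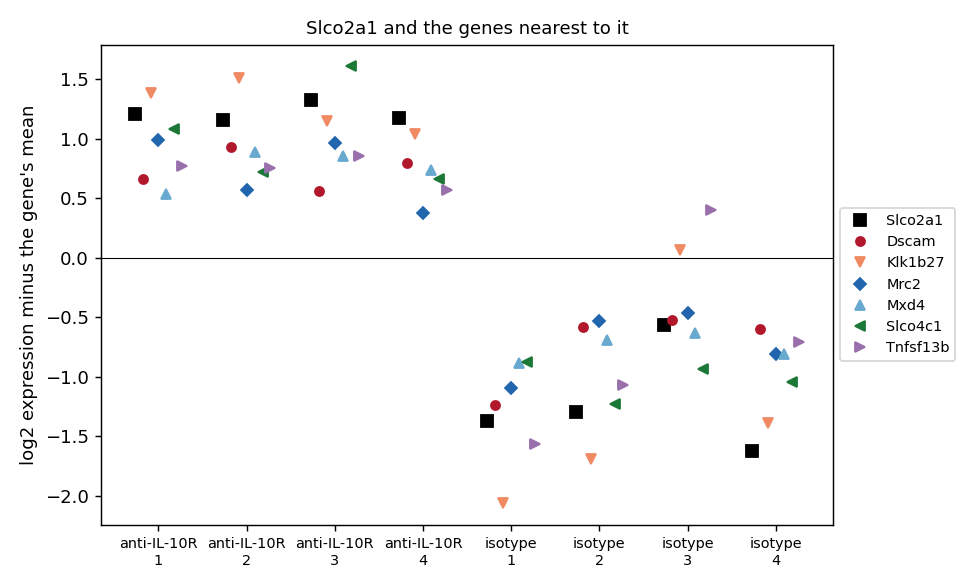
Log2 expression minus each gene's own mean over the 8 arrays, anti-IL-10R arrays left and isotype arrays right, for Slco2a1 (black squares) and the 6 genes nearest to it by root mean square distance, with and without dim genes. All but Slco4c1 are highest among isotype arrays in replicate 3, Klk1b27 and Tnfsf13b by the widest margins.

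Genes that free arachidonic acid did not pass the threshold. Of 10 listed 9 were measured, with 0 past the limma threshold, 1 at an unadjusted p below 0.05 (14.1% of all genes), and a median difference of 0.03. Pla2g6, a calcium-independent phospholipase A2 gene, had log2 expression of 7.29, 7.19, 7.36 and 7.29 in anti-IL-10R arrays, against 6.95, 6.79, 6.94 and 6.83 in isotype arrays. The groups did not overlap, and the difference was 0.40 ± 0.10 (SE, limma adjusted p = 0.0992), past the threshold without isotype replicate 1 (0.0429). Pla2g4a, which encodes the main phospholipase of prostanoid synthesis in inflammation, was dim, with means of 3.99 ± 0.09 (SD, n = 4) and 3.96 ± 0.10 (difference 0.03, and 0.05 without isotype replicate 1), and was chosen after its values were seen. Pla2g2d and Pla2g5, secreted phospholipase genes, differed by −0.20 ± 0.14 and 0.22 ± 0.15, and without isotype replicate 1 by −0.09 and 0.14.

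The terminal synthases gave 9 measured genes of 10, with 0 past the limma threshold and 0 at an unadjusted p below 0.05. Differences ran from −0.21 to 0.15, with a median of −0.03. Ptges, the inducible prostaglandin E synthase gene, averaged 5.74 ± 0.19 (SD, n = 4) in anti-IL-10R and 5.94 ± 0.41 in isotype arrays. Ptges2, another prostaglandin E synthase gene, averaged 6.49 ± 0.26 and 6.70 ± 0.17, and Ptgis, the prostacyclin synthase gene, 6.08 ± 0.14 and 5.96 ± 0.23. All 3 had overlapping groups. Without isotype replicate 1 the difference of Ptges was −0.0059 in place of −0.21 and that of Ptgis 0.20 in place of 0.12.

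Export and inactivation genes (4 measured of 4) and the other prostanoid receptors (4 of 4) likewise had 0 past the limma threshold. They had 1 and 0 genes at an unadjusted p below 0.05 (14.1% of all genes). Abcc4, the gene of a prostaglandin exporter, averaged 7.14 ± 0.16 (SD, n = 4) in anti-IL-10R and 7.19 ± 0.31 in isotype arrays, a difference of −0.04, or 0.02 without isotype replicate 1. Ptgr1, a prostaglandin reductase gene, differed by −0.37 ± 0.16 (SE) and Ptgr2, its relative, by 0.06 ± 0.14 (0.16 without isotype replicate 1). Tbxa2r, the thromboxane receptor gene, had 7.37, 7.66, 7.67 and 7.52 in anti-IL-10R arrays, against 6.68, 7.54, 7.39 and 7.26 in isotype arrays. Its groups overlapped, with isotype replicate 1 the lowest, and the difference was 0.34 with that array and 0.16 without it. Ptgdr, the gene of the prostaglandin D2 receptor DP1, was dim, with 4.85 to 4.95 in anti-IL-10R and 4.67 to 4.82 in isotype arrays. Ptgdr had 2 rows, and its difference was 0.20 in the brightest row and 0.10 in the mean of both. Ptgfr, the gene of the prostaglandin F receptor, differed by −0.08 ± 0.11.

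Of 13 listed leukotriene and lipoxygenase genes of arachidonic acid metabolism, 12 were measured. None passed the limma threshold and 1 had an unadjusted p below 0.05 (14.1% of all genes), with a median difference of −0.04. That gene was Cysltr2, which encodes a cysteinyl leukotriene receptor, with 8.55, 8.28, 8.63 and 8.24 in anti-IL-10R arrays, against 7.84, 7.81, 7.97 and 8.09 in isotype arrays. The groups did not overlap, and the difference was 0.50 ± 0.13 (SE, limma adjusted p = 0.111). Ltc4s, the leukotriene C4 synthase gene, and Alox12, a lipoxygenase gene, differed by −0.25 ± 0.12 and 0.21 ± 0.10.

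Downstream of EP2 and EP4, 24 of 27 listed genes of cAMP signalling were measured, and 1 rose while 0 fell, against 0.302% of all genes higher and 0.352% lower. The median difference was 0.08, against −0.02 over all genes, and 17 of the 24 differences were above 0 (46.5% of all genes). Of the 24, 20 had means of at least 5.24, whereas the values over all genes include many dim ones. Akap13, which encodes an anchoring protein of the cAMP-dependent kinase, had log2 expression of 9.75, 9.78, 9.78 and 9.82 in anti-IL-10R arrays, against 9.16, 9.29, 9.18 and 9.36 in isotype arrays. The groups were clearly apart, with a difference of 0.53 ± 0.10 (SE, limma adjusted p = 0.0497). The call sat at the threshold: it was kept without isotype replicate 1 (adjusted p = 0.0223) and lost when any of the other 7 arrays was left out (0.104 to 0.169).

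Adcy7, an adenylyl cyclase gene of blood cells, and Pde3b, which encodes a phosphodiesterase that breaks cAMP down, also had groups that did not overlap. Both were named after their values were seen. Adcy7 had 9.699, 9.698, 9.804 and 9.681 in anti-IL-10R arrays, against 9.214, 9.003, 9.342 and 9.122 in isotype arrays, a difference of 0.55 ± 0.11 (SE, limma adjusted p = 0.0557, and 0.0244 without isotype replicate 1). Pde3b had 10.20, 10.35, 10.13 and 10.08 in anti-IL-10R arrays, against 9.35, 9.83, 9.64 and 9.77 in isotype arrays, a difference of 0.54 ± 0.13 (adjusted p = 0.0934). The product of one makes cAMP and that of the other removes it, and neither gene passed over all genes.

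Genes that cAMP and its transcription factor CREB induce had 13 of 14 listed genes measured, 3 of them also in the signalling list. None passed the limma threshold, and 3 had an unadjusted p below 0.05 (14.1% of all genes). The median difference was 0.21, against −0.02 over all genes, with 9 differences above 0 (46.5% of all genes) and 4 below. Of the 13, 11 had means of at least 5.24, whereas the values over all genes include many dim ones. The list median includes isotype replicate 1. Without this array the differences of Sik1 and Fosb fell from 0.28 and 0.21 to 0.09 and 0.07, while that of Pde4b rose to 0.39. Nr4a2, a nuclear receptor gene, had 11.51, 11.54, 11.65 and 11.65 in anti-IL-10R arrays, against 10.83, 11.25, 11.16 and 11.06 in isotype arrays (difference 0.51 ± 0.12 SE, limma adjusted p = 0.0841). Dusp1, a phosphatase gene, had 10.02, 10.16, 10.47 and 10.64, against 9.39, 9.63, 9.89 and 9.68 (0.67 ± 0.16, adjusted p = 0.0948). Both had groups that did not overlap. Pde4b, a phosphodiesterase gene of both lists, differed by 0.34 ± 0.13 with overlapping groups. Nr4a3 and Fos went the other way, with −0.36 ± 0.18 and −0.33 ± 0.24, also with overlapping groups. Without isotype replicate 1 they differed by −0.45 and −0.16. Sik1, Fosb, Nr4a3 and Fos were named after their values were seen.

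The related gene Nr4a1 had a different pattern, with 8.51, 8.45, 8.47 and 8.79 in anti-IL-10R arrays, against 7.11, 9.12, 9.38 and 9.16 in isotype arrays. Isotype replicate 1 was the lowest of all 8 and the other isotype arrays were the highest. Its difference was −0.14 ± 0.42 over all arrays and −0.67 ± 0.12 without isotype replicate 1 (limma adjusted p = 0.0201). Nr4a1 was named after its values were seen. These genes also respond to T cell receptor signalling, and sort and treatment-target genes are set beside them. All 10 had differences above 0 (46.5% of all genes), with a median of 0.25, and 6 had non-overlapping groups (10.3% of all genes). None passed the limma threshold, and 6 had an unadjusted p below 0.05 (14.1% of all genes). Their part in the result was not tested.

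**Figure D4:**
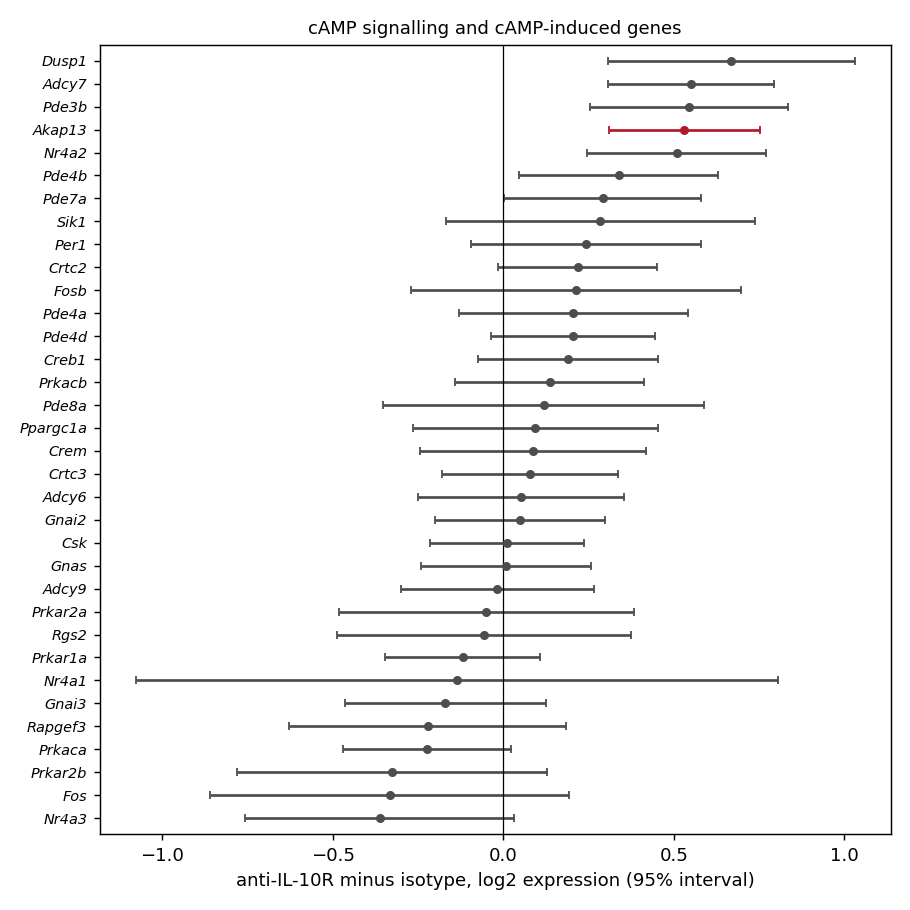
Difference between anti-IL-10R and isotype arrays in log2 expression (points) with its 95% interval (bars, limma, 4 arrays a group) for the measured genes of cAMP signalling and of the cAMP-induced list. Akap13 (red) passed an adjusted p below 0.05 over all genes; Dusp1, Adcy7, Pde3b and Nr4a2 lie beside it, and Nr4a1 has the widest interval.

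Over all 8 pathway lists, 86 of 93 genes were measured. Of these, 2 passed the threshold (0.654% of all genes), Slco4c1 and Akap13, both higher. Without isotype replicate 1, when 3.47% of all genes passed, there were 6: Slco4c1, Akap13, Adcy7, Nr4a2 and Pla2g6 higher, and Nr4a1 lower. Groups did not overlap for 13 of the 86, and for 10.3% of all genes. The median difference was 0.01 over the 86 and −0.02 over all genes.

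Markers of other cells that carry prostanoid genes were set beside these values. SLCO2A1 is well known in endothelium: the 10 endothelial markers, of which 2 had means of at least 5.24, averaged 4.52 to 4.71 in anti-IL-10R arrays and 4.49 to 4.82 in isotype arrays. Their means thus overlapped, and 0 of 10 passed the limma threshold (2 at an unadjusted p below 0.05, against 14.1% of all genes). These were Tie1, with a difference of 0.32 ± 0.13, and Emcn, with −0.32 ± 0.13, both with overlapping groups, and 4 of the 10 differences were above 0. Cdh5, the defining cadherin of endothelium, averaged 5.28 in anti-IL-10R and 5.47 in isotype arrays (difference −0.19, and −0.06 without isotype replicate 1); these 3 were named after their values were seen. The 10 macrophage and monocyte markers averaged 5.43 to 5.58 and 5.41 to 5.85, the 6 measured of 8 platelet markers 5.23 to 5.45 and 5.21 to 5.40, and the 7 mast cell and basophil markers 3.90 to 3.96 and 3.95 to 4.18. In these 3 lists 0 markers passed the limma threshold and 0 had an unadjusted p below 0.05.

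Of the remaining lists, 9 measured B cell markers averaged 4.80 to 4.93 in anti-IL-10R arrays and 4.80 to 5.33 in isotype arrays, with 8 of 9 differences below 0. The 4 eosinophil markers averaged 4.32 to 4.53 and 4.34 to 4.96, and the 5 measured dendritic cell markers 5.29 to 5.46 and 5.34 to 5.53. The 4 markers of CD4 and regulatory T cells averaged 5.08 to 5.38 and 5.15 to 5.94, and in that list Foxp3 differed by −0.92 ± 0.47 (SE, limma adjusted p = 0.415) with overlapping groups. Isotype replicate 1 had 7.97 in Foxp3; the remaining isotype arrays lay between 5.46 and 5.95. Without that array the difference was −0.35 ± 0.16. None of the markers in these 4 lists passed, and 1, Zbtb46 of the dendritic cell list, had an unadjusted p below 0.05 (14.1% of all genes). Isotype replicate 1 had the highest mean of all 8 arrays in the endothelial, macrophage, mast cell, eosinophil and CD4 lists. These means were 4.82, 5.85, 4.18, 4.96 and 5.94. In the B cell, dendritic cell and platelet lists, another isotype array was the highest of its group. The part of other cells in the results above was not tested.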

How the data were processed

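The authors deposited log2 expression values, 1 per transcript cluster and array. The submitters' processing notes name Affymetrix Power Tools; how probes were summarised and arrays normalized is not stated in the labels used here. Precision is limited by the number of arrays. The log2 scale was read from the deposited values (1.57 to 13.89; array medians 5.19 to 5.31). Of 41345 rows, 23521 had 1 gene symbol, 1814 several and 16010 none in the platform annotation. A gene with several rows was represented by its brightest one.

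Differences are anti-IL-10R minus isotype from moderated linear models (limma version 3.58.1, R version 4.3.3; Benjamini-Hochberg over all 22180 genes, without a filter so that dim members stay in). The members and lists were chosen with earlier results of these data known. Named were all members, genes of each pathway list past the threshold or otherwise the 3 with the smallest p, the 5 nearest to Slco2a1, and sort genes; exceptions are marked. Predicted and Rik genes, microRNAs and snoRNAs were left out of the nearest genes. Promoters are RefSeq sequences of GRCm38.p6; 9 of the 10 members matched by symbol. Alternatives were filters on dim genes, other scalings, variance models, array weights, a replicate block and leaving out arrays.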

Additional observations from a re-analysis of the deposited data

Results flagged for a closer look

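Among 88 groups of 4 arrays examined, 9 had 1 array far from the other 3 (by Dixon's test of the gap over the group's range); chance gives about 1 in 20. The groups were those of the members, the pathway genes named by rule, Adcy7, Pde3b, the sort genes and the 5 nearest to Slco2a1. Other named genes, such as Nr4a1 and Foxp3, were not examined in this way. For Ptger2, anti-IL-10R replicate 4 had 7.469 against 7.907 to 7.992 in the other anti-IL-10R arrays. For Ptgdr, anti-IL-10R replicate 1 had 4.846 against 4.934 to 4.948, and for Adcy7, anti-IL-10R replicate 3 had 9.804 against 9.681 to 9.699. Isotype replicate 1 was the array apart for Pdcd1 (10.34 against 11.1 to 11.2), Cd44 (6.049 against 6.562 to 6.577) and Dscam (7.474 against 8.112 to 8.193). The remaining ones were Il7r in anti-IL-10R replicate 4 (4.339 against 3.271 to 3.412), Cd3e in anti-IL-10R replicate 2 (12.57 against 12.6 to 12.61) and Il10ra in isotype replicate 4 (9.997 against 9.884 to 9.903).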

How the results depend on the processing

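The Slco2a1 difference stayed between 2.29 and 2.64 over 17 alternatives, and Slco4c1 between 1.84 and 2.16 over the 15 that kept it (both filters on dim genes remove it). The count of genes past the threshold, 145, was 304 and 460 with filters at the median and upper quartile of row means, 453 after quantile normalization, 96 with centred arrays, 232 with a trended robust variance, 923 with array weights, 12 over all rows of the table, and 5 to 769 with 1 array left out. The 2 pathway genes past it became 7 with the stricter filter, 1 with centred arrays, 4 with the trended variance and 8 with array weights. They became 1 over all rows and 1 to 6 with 1 array left out. Slco4c1 was not among the 7, since that filter removes it. The counts over all genes moved too, to 460 of 6636 with that filter and 923 of 22180 with array weights. By Pearson correlation 1 of the 5 genes nearest to Slco2a1 was kept. Signs turned for Ptgir (0.15 without isotype replicate 3 and 0.05 without anti-IL-10R replicate 2), Ptgr2 (−0.0086 after quantile normalization), Abcc4 (0.0412 with array weights) and Il7r (−0.0129 with centred arrays); with 1 array left out the last 3 spanned −0.0483 to 0.163, −0.149 to 0.0631 and −0.22 to 0.33. The cause of these shifts was not tested. Whether same-numbered arrays are pairs was not settled. The sample titles carry matching numbers for replicates 2 to 4 but not for replicate 1. Deviations of same-numbered arrays correlated at −0.05, 0.12, 0.02 and −0.16, which are too few values to decide it. A replicate block left 6 genes and 1 pathway gene past the threshold. Of 635 alternative values for 39 named genes, 596 kept their direction and side of the threshold or moved by less than the spread.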
